A study of Homo sapiens and Mus musculus with 56 samples.

Results

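Mouse leukaemic cells transformed by MLL-AF9 were compared after 4 days with 3 µM MI-2-2, an inhibitor of menin, or with DMSO, the solvent control. The comparison uses 6 of the 56 Affymetrix arrays of a study of DOT1L and menin inhibition in 5 leukaemia cell models, and each group holds 3 arrays, chosen by the treatment in the sample title. The other 6 mouse arrays, 3 with 3 µM EPZ004777, which blocks the histone methyltransferase DOT1L, and 3 with both compounds, lend their spread to the test. The human line MOLM-13, treated with MI-2-2 at the same dose for the same time, is set beside the mouse values at the end. Per the labels the mouse cells are a primary culture kept in medium with serum, interleukin-6, interleukin-3 and stem cell factor, which cells of every group received. Titles call the replicates biological without saying whether they were separate cultures, so p-values measure the spread between these arrays. How the fusion was introduced, and whether the culture is a single clone, is not given in the sources used here.

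MLL-AF9 is the older name of the fusion of KMT2A, a histone methyltransferase of developmental genes, with MLLT3. Menin binds the amino-terminal part of KMT2A that fusion proteins keep, and menin and DOT1L are both known to be needed for fusion proteins to maintain genes such as Hoxa9 and Meis1. Leukaemic cells of this kind resemble granulocyte and monocyte progenitors, and in normal bone marrow neutrophil maturation proceeds through the ordered appearance of granule proteins.

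The control cells carried transcripts of both granulocytic and monocytic cells. On the DMSO arrays 26 monocyte and macrophage genes summed to 15.78 to 16.09 log2 and 21 neutrophil genes to 16.11 to 16.42. On the DMSO arrays Hoxa9, a homeobox gene of progenitors, lay between 13.19 and 13.25 log2, and Ctsg, a serine protease of primary granules, between 14.12 and 14.22. For comparison, percentile 40 of these arrays, taken as the border of dim signal, lay between 5.35 and 5.38. Of markers of other lineages with a probe set on the array, 1 of 5 erythroid, 3 of 7 T and NK cell, 2 of 8 stromal, 2 of 5 eosinophil and 3 of 6 dendritic cell genes passed the filter on signal. More passed for mast cells and basophils (8 of 9), megakaryocytes (5 of 6) and B cells (5 of 7), and the summed B cell markers were lower with MI-2-2, 10.24 to 10.33 log2 against 10.57 to 10.65. Among them Cd79b, the immunoglobulin-associated beta chain, was at 9.52, 9.72 and 9.78 with DMSO and 8.90, 8.95 and 9.05 with MI-2-2. Its difference of -0.71±0.26 was not called (adjusted p = 0.204). Summed markers of mast cells and basophils (11.43 to 11.88 with DMSO, 11.96 to 12 with MI-2-2), megakaryocytes (8.63 to 8.84, 8.89 to 9.06), eosinophils (7.99 to 8.41, 8.70 to 8.81), stroma (7.54 to 7.67, 7.98 to 8.06) and T and NK cells (7.93 to 8.06, 8.12 to 8.34) were higher with MI-2-2, and those of dendritic cells, Flt3 among them, were lower (7.89 to 8.41, 7.62 to 7.72). Such sums weigh the brightest members most. Medians of tested members were -0.04 for mast cells and basophils, 0.01 for megakaryocytes and 0.28 for T and NK cells, with no member called. They were 0.82 for stroma, where only Col1a1 of 2 was called, and 0.001 for dendritic cells, where only Flt3 of 3 was. The 2 eosinophil genes tested went opposite ways. Siglecf, a lectin of eosinophils, rose by 1.24±0.18 and Prg3, an eosinophil granule protein, fell by 0.96±0.19, a call lost without DMSO replicate 2 or 3 or MI-2-2 replicate 1. The part of these cells in the results was not tested.

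DMSO replicate 1 stood apart from the other DMSO arrays in myeloid genes. It lay at least 1 log2 unit below both of them for 4 of 21 neutrophil genes and 4 of 26 monocyte genes, against 0.64% of all genes. Mpeg1, a macrophage perforin, was 7.17 there and 10.15 and 10.22 on replicates 2 and 3. Csf1r, the receptor of macrophage colony-stimulating factor, was 5.80 there against 9.20 and 8.94. For 4 of 16 ERK feedback genes the same array lay at least 1 unit above both others, against 0.38% of all genes. The combination arrays stood apart from each other, with a standard deviation of the difference between replicate 1 and replicates 2 and 3 of 0.741 and 0.788 log2, where pairs in the other groups gave 0.149 to 0.308. Within each mouse group 1 pair of arrays was closer than the rest, DMSO replicates 2 and 3 and MI-2-2 replicates 1 and 3 at 0.151 each. The excess of 3' over 5' signal of the actin control probe sets, a sign of RNA integrity, was 0.49 to 0.63 with DMSO and 0.44 to 0.61 with MI-2-2, and up to 1.99 in the combination.

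MI-2-2 changed a limited part of the transcriptome, and more of its larger changes were rises than falls. Of 13365 genes tested, 703 were called (5.26%, adjusted p under 0.05 in limma), 433 higher (3.24%) and 270 lower (2.02%). At least 1 log2 unit, or 2-fold, separated the groups for 199 of the risers (1.49% of all genes) and 106 of the fallers (0.793%). Each of the 703 had all MI-2-2 arrays on one side of all DMSO arrays, as had 34.8% of all genes. The median change of all genes was -0.02. The test shares its spread with the uneven combination arrays: without them 1856 of 13072 genes were called (14.2%), 968 higher (7.41%) and 888 lower (6.79%), and 694 of the 703 were among them. Leaving out 1 array at a time gave 416 calls without DMSO replicate 3, 448 without DMSO replicate 2, 432 to 434 without an MI-2-2 array and 1695 without combination replicate 1.

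**Figure D1:**
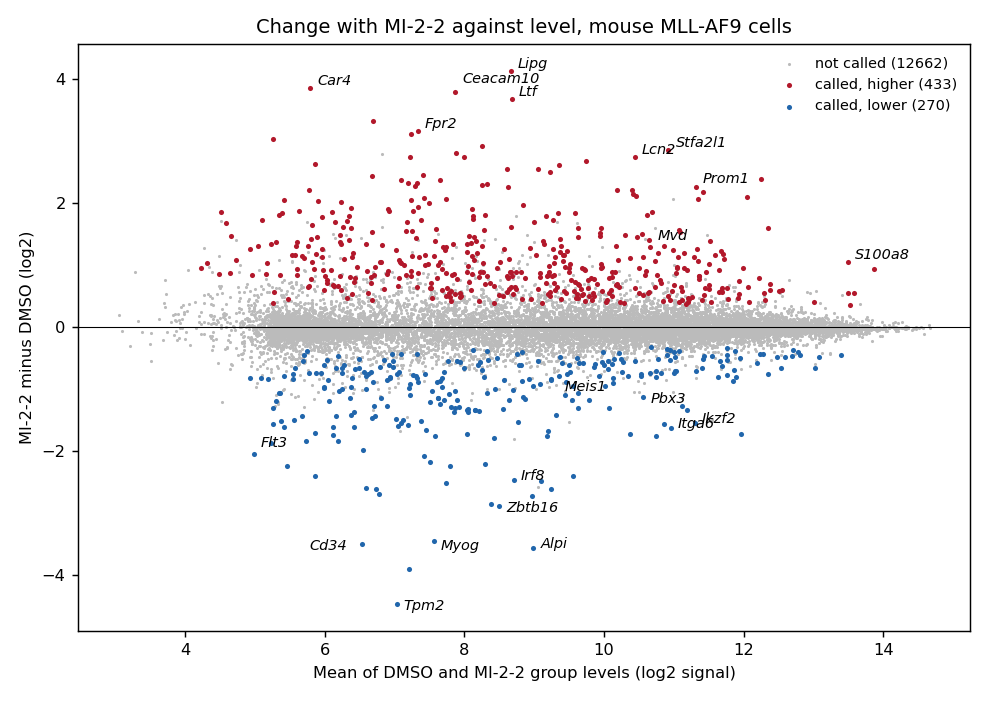
Difference between MI-2-2 and DMSO (log2, vertical axis) against the mean level of the 2 groups (log2 signal, horizontal axis), 1 point per gene. Red points are the 433 genes called higher and blue points the 270 called lower; Lipg, Car4, Ceacam10 and Ltf lie highest, and Tpm2 lies lowest.

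Genes of neutrophil granules and receptors rose together. Of 24 genes in the list, 21 were tested, 14 rose and 0 fell, with a median of 1.51 against -0.02 for all genes. MI-2-2 arrays lay above all DMSO arrays for 18 of the 21, as for 16.5% of all genes. More maturing cells and more RNA of these genes per cell cannot be told apart in bulk RNA. DMSO replicate 1 was low for several members; without it the median was 0.99 and 13 members rose.

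Among proteins of secondary granules, lactoferrin (Ltf), which binds iron, was at 6.29, 7.29 and 6.92 with DMSO and at 10.50, 10.65 and 10.39 with MI-2-2. The groups were far apart, and the difference was 3.68±0.23, or 12.8-fold (adjusted p = 5.99e-06; differences are log2 ± standard error). Lipocalin 2 (Lcn2), which binds bacterial siderophores, read 8.84, 9.14 and 9.23 against 11.85, 11.72 and 11.86, a rise of 2.74±0.12 (adjusted p = 1.02e-06). The cathelicidin gene Camp, whose product is an antimicrobial peptide, gave 10.37, 11.31 and 11.33 against 13.11, 13.13 and 13.05 and rose by 2.10±0.23. In these 3 genes the treated arrays sat close together and the lowest control was replicate 1. Ngp, a neutrophilic granule protein, rose by 1.59±0.12, and Chil3, a chitinase-like protein, by 2.21±0.39.

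Genes of primary granules started from higher levels, and apart from Mpo their differences were under 1 log2 unit. Myeloperoxidase (Mpo), which makes hypochlorous acid, measured 9.54, 11.81 and 11.79 with DMSO and 13.56, 13.48 and 13.29 with MI-2-2. Its rise of 2.40±0.49 (adjusted p = 0.0166) was lost without any 1 of the MI-2-2 arrays (0.054 to 0.0663). Neutrophil elastase (Elane) read 13.03, 13.31 and 13.33 against 13.80, 13.78 and 13.75 and rose by 0.55±0.10. Proteinase 3 (Prtn3) rose by 0.36±0.09 (adjusted p = 0.0379), a call that ended without any 1 of the DMSO or MI-2-2 arrays or without EPZ004777 replicate 1 or 2. Ctsg, already near the top of the scale, differed by 0.06±0.10.

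Surface receptors of the list rose as well. The formyl peptide receptor Fpr2, which senses bacterial peptides, was at 5.31, 6.10 and 5.83 with DMSO and 8.94, 8.73 and 9.06 with MI-2-2, 3.16±0.20 higher. Cd177, a neutrophil surface glycoprotein, rose by 2.61±0.21 and Itgb2l, an integrin beta 2-like chain, by 2.81±0.19. The gelatinase gene Mmp9 rose by 1.54±0.17. The alarmins S100a8 and S100a9, which form the calprotectin complex, rose by 1.06±0.13 and 0.94±0.13 from control levels above 12.6; the S100a8 probe set may bind other transcripts. Of those not called, Mmp8 was 1.51±0.60 (adjusted p = 0.253), Csf3r, the receptor of granulocyte colony-stimulating factor, 0.81±0.52, and Cxcr2, a chemokine receptor of mature neutrophils, 0.03±0.18.

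The 15 largest rises held further genes of granulocytes outside that list. Olfactomedin 4 (Olfm4), a protein of a subset of neutrophil granules, was at 8.0, 8.63 and 8.60 against 11.12, 11.07 and 11.06, 2.67±0.15 higher. The endothelial lipase gene Lipg had the highest value of all, 4.14±0.42 or 17.6-fold, from 6.99, 6.38 and 6.41 to 10.79, 10.76 and 10.64. Car4, a membrane carbonic anhydrase, rose by 3.85±0.35 and Slfn1, a schlafen family member, by 3.04±0.18, both from DMSO arrays that were all below percentile 40. Ceacam10 rose by 3.79±0.18, although the dimmest of its 3 probe sets differed by -0.05. Also among the 15 were Bst1 (3.33±0.44), an ectoenzyme of myeloid cells, Mgam (2.92±0.13), the enzyme maltase-glucoamylase, and Il1r2 (2.74±0.26), a decoy receptor for interleukin-1. Wfdc21 (3.11±0.18), Stfa2l1 (2.85±0.16), a stefin-like gene, and Ifitm6 (2.74±0.18) complete the set together with the genes already given.

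**Figure D2:**
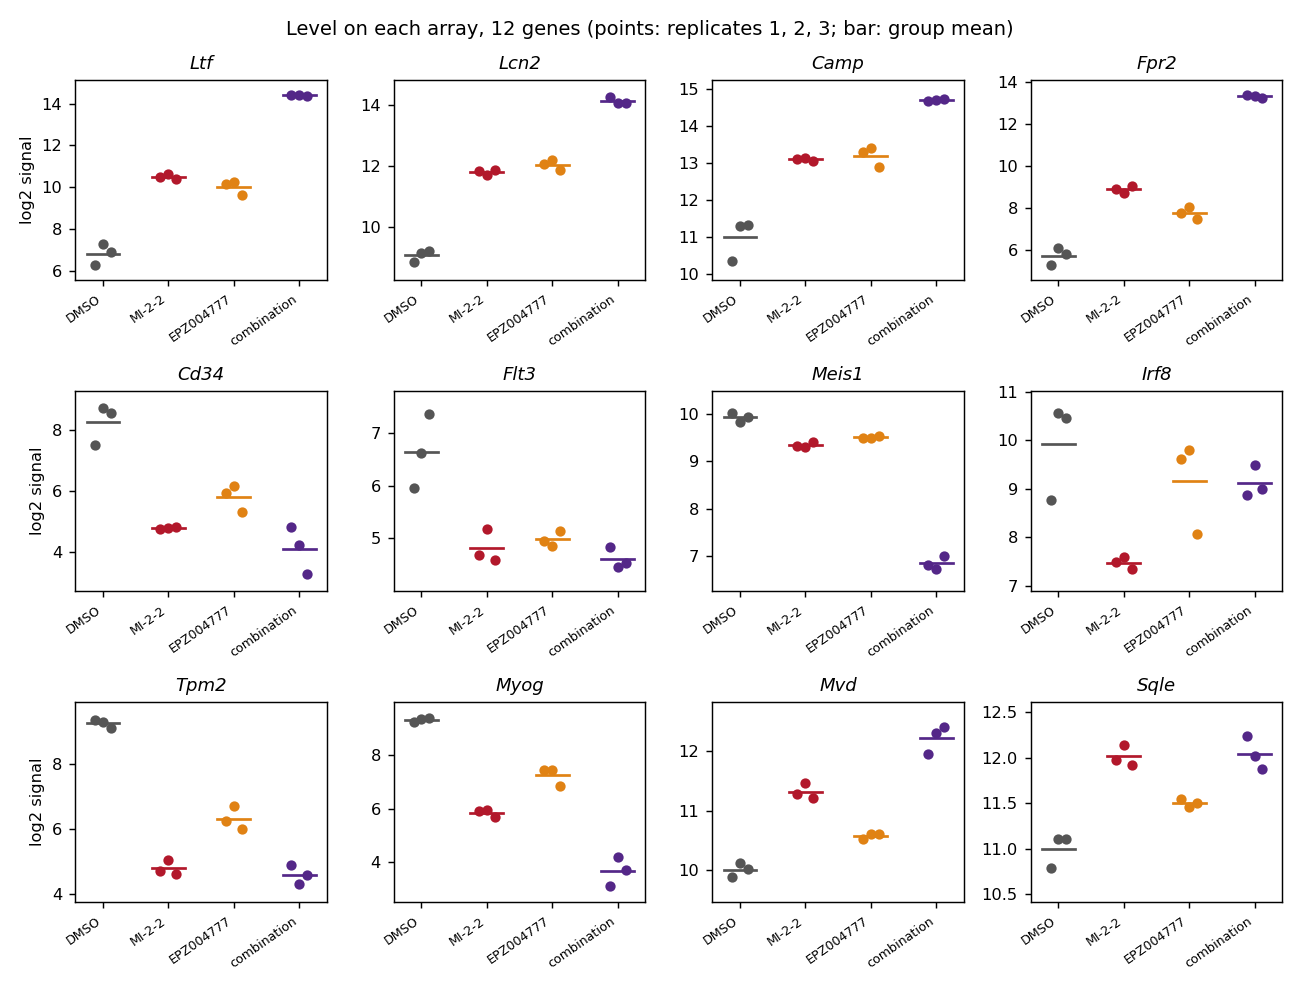
Level of 12 genes on each of the 12 mouse arrays (log2 signal; points are replicates 1, 2 and 3 of a group, bars are group means). Ltf, Lcn2, Camp and Fpr2 are higher on all MI-2-2 arrays than on all DMSO arrays, Cd34, Flt3, Meis1, Irf8, Tpm2 and Myog are lower, and the sterol synthesis genes Mvd and Sqle are higher.

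Monocyte and macrophage genes showed a mixed pattern beside the neutrophil genes. Of 26 tested, 6 rose and 0 fell, and the median was 0.19 (0.11 without DMSO replicate 1). The clearest were Fcgr1, the high-affinity IgG receptor, from 6.22, 6.01 and 5.61 to 7.94, 7.81 and 7.83 (1.91±0.23), and the inhibitory receptor Cd300lf (1.27±0.15). The other, dimmer Fcgr1 probe set differed by 0.265, and the Fcgr1 call was lost under 1 alternative (adjusted p = 0.0501 in limma). The scavenger receptor Msr1 rose by 1.94±0.42 and the lipopolysaccharide co-receptor Cd14 by 0.88±0.20. Both calls were lost on leaving out single arrays: without DMSO replicate 1 or 3 or any MI-2-2 array for Msr1 (adjusted p 0.0689 to 0.0841), and without any DMSO or MI-2-2 array for Cd14 (0.062 to 0.115). Itgam, the integrin chain CD11b, a common marker of myeloid maturation, overlapped between the groups, at 6.90, 7.50 and 7.37 against 7.59, 7.55 and 7.45, with a difference of 0.27±0.21 (adjusted p = 0.744). Mpeg1 and Csf1r, which set DMSO replicate 1 apart, differed by -0.07±0.72 and 0.51±0.77.

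The transcription factor Irf8, which directs monocyte and dendritic cell fate, fell. Of 3 dendritic cell markers tested only Flt3 was called, as lower. The median of that list was 0.001, and the part of such cells was not tested. Irf8 was at 8.77, 10.56 and 10.47 with DMSO and 7.50, 7.58 and 7.35 with MI-2-2, a change of -2.46±0.51 (adjusted p = 0.0172). Here DMSO replicate 1 was the control nearest the treated arrays, whereas for Ltf, Lcn2, Camp and Mpo it was the farthest. The Irf8 call was lost without DMSO replicate 2 or 3 or any 1 MI-2-2 array (0.0596 to 0.0844). Among 16 myeloid transcription factors 1 rose, Klf4 (0.75±0.18), a monocyte factor whose call was lost without any DMSO or MI-2-2 array or without EPZ004777 replicate 1 (0.0583 to 0.157). Cebpa, needed for granulocyte formation, was 12.97, 13.18 and 13.12 against 13.00, 12.91 and 12.94, and its difference of -0.14±0.09 was not called. Of 5 NADPH oxidase subunits only Cybb, the catalytic subunit, was called (1.80±0.42), and that call too was lost without any DMSO or MI-2-2 array (0.0619 to 0.117).

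Stem and progenitor genes moved both ways. Of 16 tested, 2 rose and 3 fell, and the median was -0.04. Cd34, a sialomucin of haematopoietic progenitors, fell from 7.52, 8.73 and 8.58 to 4.75, 4.79 and 4.81, a change of -3.50±0.40 (adjusted p = 0.000442). The treated arrays were all below percentile 40. Ikzf2, the transcription factor Helios, dropped from 12.28, 11.88 and 12.05 to 10.44, 10.30 and 10.81 (-1.55±0.17), and Angpt1, a ligand of the TEK receptor, changed by -1.33±0.23. Prom1, the stem cell antigen CD133, went the other way, from 9.83, 10.37 and 10.36 to 12.42, 12.51 and 12.43 (2.27±0.13). Kit, the stem cell factor receptor, was above all controls at 9.44, 9.28 and 9.23 against 7.53, 8.62 and 8.60, and its difference of 1.06±0.32 was not called (adjusted p = 0.096). The rise of Hlf, 1.70±0.28, rested on a dim probe set: the other read 0.16 and was taken in the fit without the combination arrays, where the call was lost (adjusted p = 0.515).

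Known targets of KMT2A fusions leaned downward, with a small change at the median and larger falls in single members. Of 26 genes in the list 23 were tested, 5 fell and 0 rose, and the median was -0.35. MI-2-2 arrays lay below all DMSO arrays for 19 of the 23, as for 18.3% of all genes. The 5 fallers stand beside 2.02% of all genes called lower. Without the combination arrays 13 fell, beside 6.79% of all genes, and without combination replicate 1 alone 13 fell, beside 780 of 13326 genes. With the closest pair of arrays in each group averaged limma called 0 of the list and 42 of 13184 genes lower. There 9 members were lower at an unadjusted p under 0.05, with no share of all genes given here. With the combination left out as well 7 fell, beside 229 of 12927 genes.

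Hoxa9, the homeobox gene most often tied to these fusions, was at 13.19, 13.25 and 13.23 with DMSO and 13.14, 13.15 and 13.13 with MI-2-2. The groups did not overlap, and the difference of -0.08±0.11 was not called (adjusted p = 0.956). Its cofactor Meis1 fell from 10.02, 9.84 and 9.94 to 9.33, 9.31 and 9.41, a change of -0.58±0.09 (adjusted p = 0.00378). Of its 3 probe sets the others gave -0.68 and -0.16, and with the mean of all of them the call was lost (adjusted p = 0.204). Pbx3, another cofactor of HOX proteins, fell from 11.19, 11.11 and 11.09 to 9.96, 10.08 and 9.96, or 2.18-fold (-1.12±0.12, adjusted p = 0.000332). Its probe set may also bind other transcripts.

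Flt3, a receptor tyrosine kinase, dropped from 5.96, 6.62 and 7.35 to 4.68, 5.17 and 4.59 (-1.83±0.29), with all treated arrays below the lowest control and below percentile 40. Only the 3 DMSO arrays had it above percentile 40. It thus entered the test, and the 5 fallers of the list, only through the group where it was high, and its fall is measured against dim signal. Mecom, the stem cell transcription factor EVI1, read 8.03, 7.96 and 7.59 against 6.44, 5.97 and 6.51 (-1.55±0.25). The survival gene Bcl2 fell by 1.33±0.21, and the related Bcl2l1 rose by 0.46±0.10, a call lost without DMSO replicate 2 or 3 or MI-2-2 replicate 1 or 2 (0.0613 to 0.0871). Further down the list Tcf4 (-1.14±0.32), Jmjd1c (-0.67±0.17) and Mef2c (-0.62±0.20) were not called, with adjusted p of 0.0723, 0.0506 and 0.136. Myb and Myc, transcription factors of growing progenitors, differed by -0.02±0.07 and 0.02±0.14.

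Of the machinery that the compounds address, no transcript was called by limma. Among 11 menin and KMT2A complex genes the median was 0.13, and Men1, which encodes menin, was at 9.34, 9.34 and 9.39 against 9.41, 9.74 and 9.33 (0.14±0.14, adjusted p = 0.866). Kmt2a itself differed by 0.72±0.23 (adjusted p = 0.132), with DMSO replicate 1 at 10.45 beside 9.52 and 9.72 on the other controls. Among 13 DOT1L and super elongation complex genes the median was -0.01, and Dot1l differed by 0.13±0.24. At an unadjusted p under 0.05, 1 gene of each list was higher and 0 lower.

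The largest falls were led by genes better known from other tissues. Tpm2, a tropomyosin of muscle, was at 9.37, 9.31 and 9.11 with DMSO and 4.71, 5.07 and 4.62 with MI-2-2, a change of -4.46±0.20 (adjusted p = 1.02e-06). All 3 treated arrays were below percentile 40, as they were for Nol4 among the largest falls, so these differences are measured against dim signal. Myog, the muscle factor myogenin, went from 9.19, 9.32 and 9.34 to 5.90, 5.94 and 5.69 (-3.44±0.24). Mylpf, a myosin light chain of fast muscle, changed by -2.48±0.15. All 3 had clear signal on every DMSO array.

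Genes of gut and liver epithelium stood beside them. Alpi, the intestinal alkaline phosphatase, fell from 10.64, 10.93 and 10.74 to 7.34, 7.37 and 6.90 (-3.57±0.26). Hnf4a, a nuclear receptor of hepatocytes and gut, fell from 8.97, 9.11 and 8.91 to 6.37, 6.53 and 6.55 (-2.51±0.10), on a probe set that may bind other transcripts. Rbp4, the plasma retinol carrier, changed by -2.73±0.24 and the calmodulin-like gene Calml4 by -3.90±0.21. Zbtb16, the zinc finger protein PLZF, which is known in haematopoietic progenitors, fell by 2.88±0.35 (also on a probe set that may bind other transcripts), and the syndecan Sdc1 fell by 2.60±0.44. The remaining genes of the 15 were Camk1d (-2.86±0.43), a calcium-dependent kinase, Tns1 (-2.60±0.13), a focal adhesion protein, Fam155a (-2.60±0.22), Nol4 (-2.41±0.28), Cd34 and Irf8.

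**Figure D3:**
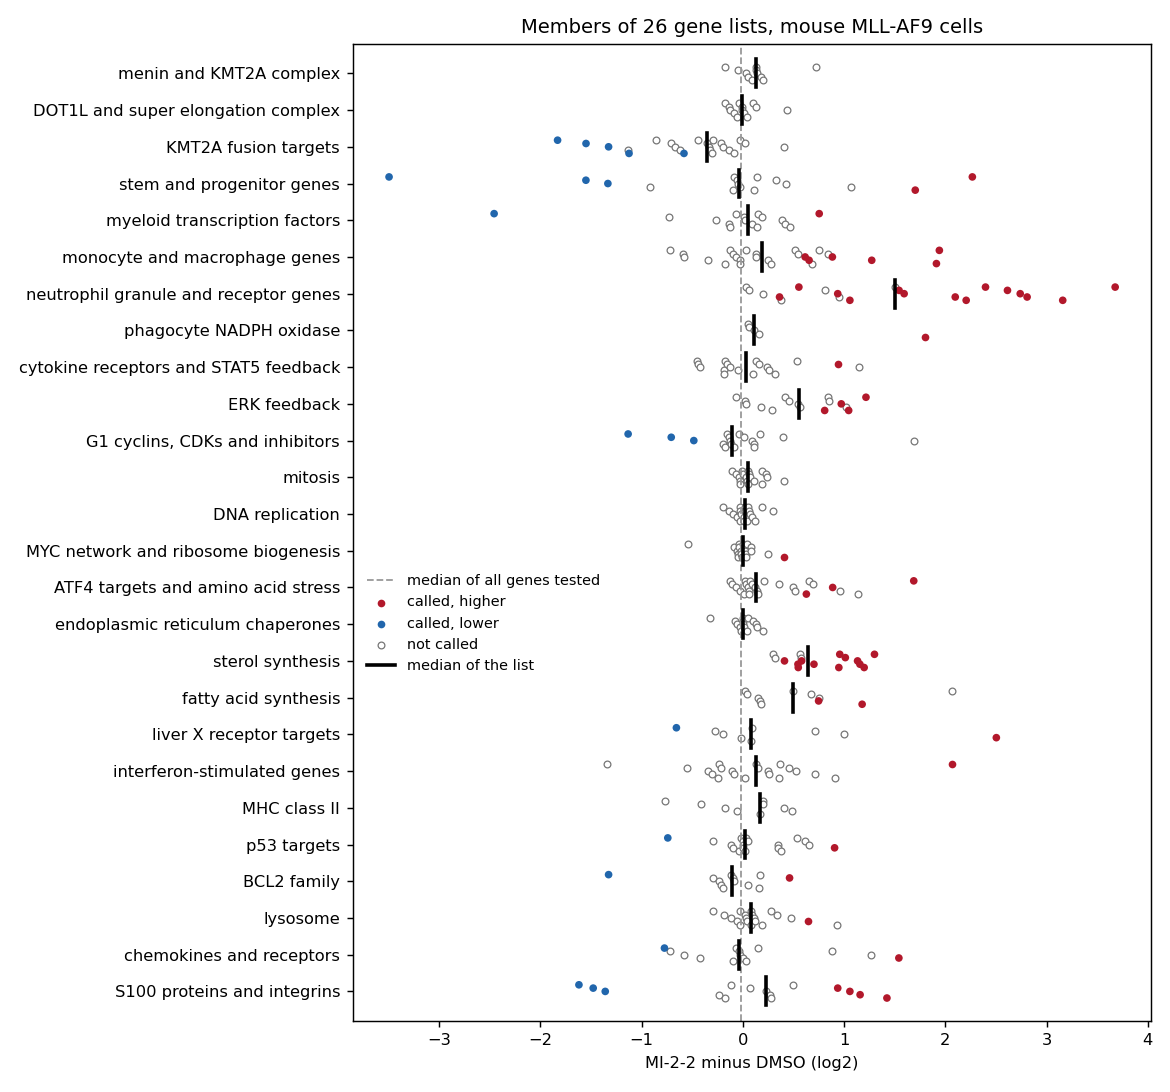
Change with MI-2-2 (log2, horizontal axis) of each tested member of 26 gene lists (rows), with filled points for called genes and open points for genes not called. Black bars are list medians and the dashed line is the median of all genes tested; the neutrophil and sterol lists lie farthest to the right, with medians of 1.51 and 0.64, and KMT2A fusion targets lie to the left at -0.35.

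Sterol synthesis genes rose along the pathway. Of 21 in the list 16 were tested, 12 rose and 0 fell, and the median was 0.64. All 16 had MI-2-2 arrays above all DMSO arrays, as had 16.5% of all genes. In the fit without the combination arrays 16 rose, against 7.41% of all genes. The count fell to 9 without DMSO replicate 1 or 2 or any MI-2-2 array, to 10 without DMSO replicate 3, and to 3 with the closest pair of arrays in each group averaged (13 when the combination was left out as well).

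Early in the pathway Hmgcs1, which makes HMG-CoA, read 13.23, 13.35 and 13.34 with DMSO and 13.87, 13.89 and 13.80 with MI-2-2 (0.54±0.08). The mevalonate enzyme gene Mvd rose from 9.90, 10.12 and 10.02 to 11.28, 11.46 and 11.20 (1.30±0.13, 2.46-fold, adjusted p = 0.000171). Mvk, which acts earlier than Mvd, rose by 0.55±0.12, a call lost without any DMSO or MI-2-2 array (0.0525 to 0.0957). At the entry to sterols the squalene synthase gene Fdft1 rose by 1.20±0.12 and the squalene epoxidase gene Sqle, at 10.79, 11.11 and 11.10 against 11.97, 12.14 and 11.92, by 1.01±0.12. Later steps rose likewise: Lss, lanosterol synthase, by 1.13±0.18, Cyp51 by 0.70±0.10, Nsdhl by 0.95±0.08 and Sc5d by 1.16±0.16. The probe sets of Mvd, Fdft1 and Lss may bind other transcripts. Srebf2, the transcription factor of the pathway, differed by 0.30±0.22 and was not called.

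Fatty acid synthesis leaned the same way with fewer calls. Fatty acid synthase (Fasn) rose from 11.60, 11.58 and 11.49 to 12.16, 12.61 and 12.14 (0.75±0.14). The desaturase Fads2 rose by 1.18±0.27, lost without DMSO replicate 2 or 3 or any MI-2-2 array (0.0675 to 0.128). These 2 were the only called genes of 11, with a list median of 0.50, and Scd1, another desaturase, differed by 2.07±0.59 (adjusted p = 0.0777). Of 9 liver X receptor targets the lipoprotein lipase gene Lpl rose (2.50±0.54) and the apolipoprotein gene Apoc2 fell (-0.66±0.16). The first was lost without DMSO replicate 1 or any MI-2-2 array, the second without DMSO replicate 2 or 3, any MI-2-2 array or EPZ004777 replicate 1.

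Feedback genes of ERK signalling leaned upward. They had 4 risers and 0 fallers of 16, with a median of 0.55 (0.87 without DMSO replicate 1): Dusp6 (1.22±0.27) and Spry1 (0.97±0.20), which restrain ERK signalling, Phlda1 (1.04±0.21) and Ier3 (0.81±0.15). Each of the 4 calls was lost on leaving out at least 1 array: Dusp6 without DMSO replicate 2 or 3 or any MI-2-2 array (0.0663 to 0.119), Spry1 without DMSO replicate 2 or 3 or MI-2-2 replicate 2 or 3 (0.0512 to 0.0732), Phlda1 without MI-2-2 replicate 1 or 2 and Ier3 without DMSO replicate 3 (0.0537).

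Cell cycle genes moved little. None of 19 mitosis or 22 DNA replication genes was called by limma, 0 of either list had an unadjusted p under 0.05, and their medians were 0.05 and 0.02. Of 18 G1 regulators 3 fell and 0 rose. The inhibitors Cdkn2c, p18, and Cdkn1b, p27, were among them: Cdkn2c went from 8.03, 8.25 and 8.27 to 7.06, 6.88 and 7.20 (-1.13±0.15) and Cdkn1b from 11.57, 11.70 and 11.74 to 10.92, 10.88 and 11.09 (-0.71±0.10). E2f2, a factor of S phase entry, changed by -0.48±0.12, a call lost without any DMSO or MI-2-2 array or without EPZ004777 replicate 1 or 2 (0.0543 to 0.158).

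Leukocyte adhesion genes moved both ways. Itga6, the laminin receptor chain, fell from 11.98, 11.69 and 11.62 to 10.05, 10.04 and 10.34 (-1.62±0.19), and Itgb7, a homing integrin chain, fell from 9.10, 8.68 and 8.42 to 7.20, 7.58 and 7.34 (-1.36±0.18). Itgal, the LFA-1 chain CD11a, rose from 8.32, 8.75 and 8.92 to 9.90, 10.27 and 10.09 (1.42±0.14). In the list of 15 S100 and integrin genes 4 rose and 3 fell, and S100a8 and S100a9 stand in the neutrophil list too. Ifitm3, an antiviral membrane protein, rose by 2.06±0.14 and was the only called member of 21 interferon-stimulated genes, whose median was 0.13 (0.06 without DMSO replicate 1).

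Remaining lists held few calls. Of 26 ATF4 targets 3 rose: Psph (0.89±0.15), of serine synthesis, the glycine transporter Slc6a9 (0.63±0.11) and Cth (1.69±0.40), of cysteine synthesis, whose call was lost without DMSO replicate 2 or 3, any MI-2-2 array or EPZ004777 replicate 1. The median of the ATF4 list was 0.13. In limma 9 members were higher and 0 lower at an unadjusted p under 0.05, a count for which no share of all genes is given here. Without the combination arrays 5 members rose, beside 7.41% of all genes. In 20 MYC and ribosome genes the MYC antagonist Mxi1 rose (0.41±0.08), lost without DMSO replicate 1 or 3 or MI-2-2 replicate 2 or 3. Of 18 cytokine receptor and STAT5 feedback genes the repressor Bcl6 rose (0.94±0.21), lost without DMSO replicate 1 or 2 or any MI-2-2 array, although its brighter probe set on the DMSO and MI-2-2 arrays differed by 0.01. The chemokine Ccl6 rose by 1.54±0.23 and Ccl3 fell by 0.78±0.19, the latter lost in 9 of 12 fits that leave out 1 array. Col1a1, a stromal marker, rose by 1.65±0.20 from DMSO arrays below percentile 40, while its other probe set differed by 0.35. Of 19 p53 targets the kinase Plk2 rose (0.91±0.19) and the stress gene Sesn1 fell (-0.74±0.19), and of 20 lysosomal genes the sialidase Neu1 rose (0.64±0.14). All 3 calls were lost on leaving out single arrays, Plk2 without DMSO replicate 1 or 3 or any MI-2-2 array and the others without any DMSO or MI-2-2 array. That of Sesn1, whose probe set may bind other transcripts, was also lost without EPZ004777 replicate 1 or 2 or combination replicate 2. limma called 0 of 15 endoplasmic reticulum chaperones and 0 of 9 MHC class II genes, where 1 and 2 genes were lower at an unadjusted p under 0.05.

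EPZ004777 at the same dose and time gave values near those of MI-2-2 for many of these genes. Both treatments are set against the same 3 DMSO arrays, so their values are given side by side. EPZ004777 changed 749 genes against DMSO (5.6%; 4.22% higher and 1.38% lower), and Ltf differed by 3.18±0.23, Lcn2 by 2.97±0.12, Cd34 by -2.46±0.40, Pbx3 by -1.26±0.12 and Mecom by -2.10±0.25. The neutrophil list had 14 risers with either compound and medians of 1.51 and 1.42. In the sterol list 5 members rose with EPZ004777 against 12 with MI-2-2, with medians of 0.31 and 0.64.

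Tested against each other, the compounds differed in 67 genes (0.501%), 8 higher (0.0599%) and 59 lower (0.441%) with MI-2-2. Without the combination arrays that number was 550 (4.21%). Leaving out 1 MI-2-2 array left 14 to 22 calls, 1 EPZ004777 array 15 to 37 and DMSO replicate 2 or 3 42 and 31, while 111 were made without DMSO replicate 1 and 424 without combination replicate 1. Grk3, a receptor kinase, was at 5.20, 5.49 and 5.34 with MI-2-2 and 7.81, 8.23 and 7.71 with EPZ004777, a difference of -2.57±0.25 (adjusted p = 0.00194). Its probe set may bind other transcripts, and the brighter alternative on the DMSO and MI-2-2 arrays differed between those 2 groups by -0.05. Thegl (-2.68±0.31) and Hnf4a (-1.13±0.10) were lower with MI-2-2 as well. Thegl was above percentile 40 only on the EPZ004777 arrays and combination replicate 2, and dim on all DMSO and MI-2-2 arrays. It thus entered the test through groups where it was high, and its difference is measured against dim signal. The calls of Grk3, Thegl and Hnf4a held in every fit that left out 1 array, which does not lift that limit for Thegl.

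Among the few genes higher with MI-2-2 than with EPZ004777 were sterol enzymes. Mvd was higher by 0.73±0.13 (adjusted p = 0.0377), Nsdhl by 0.46±0.08 (0.0316) and Lss by 1.00±0.18 (0.0496), and Fpr2 by 1.11±0.20 (0.0436). Stap1, a signalling adaptor, was higher by 0.92±0.16 (0.0366). Those 5 calls were each lost in 6 to 10 fits that left out 1 array. Tpm2 (-1.53±0.20), Myog (-1.40±0.24) and Tctex1d1 (-1.77±0.27) were lower with MI-2-2 than with EPZ004777, and Myog and Tctex1d1 were lost in 6 to 10 such fits and Tpm2 in 2.

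**Figure D4:**
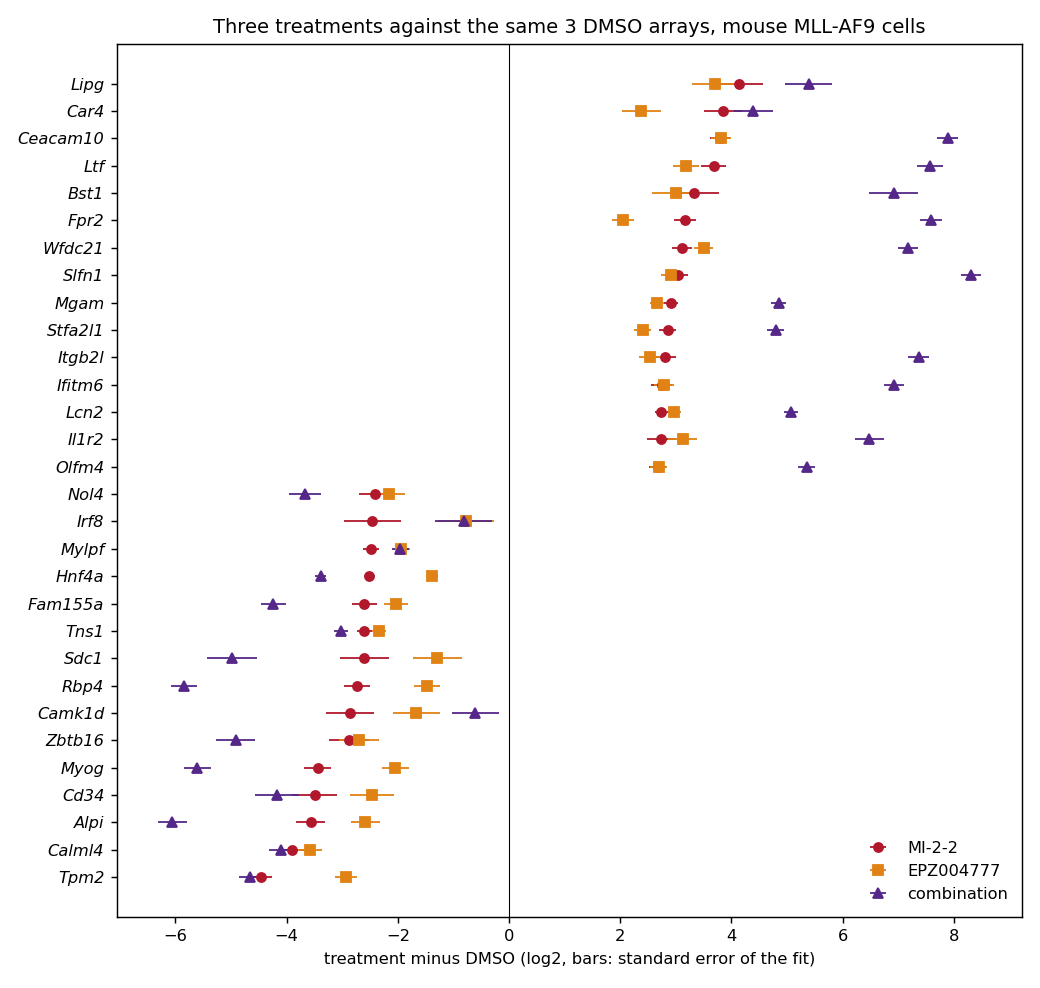
Difference from DMSO (log2, horizontal axis) with MI-2-2, EPZ004777 and the combination for the 15 genes that rose most and the 15 that fell most with MI-2-2. Bars are standard errors of the fit, and all 3 treatments share the same 3 DMSO arrays; for Ltf the differences are 3.68, 3.18 and 7.57.

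Adding EPZ004777 to MI-2-2 moved most risers further, but not most fallers. The combination differed from MI-2-2 alone in 8372 genes (62.6%; 28.9% higher and 33.8% lower), its arrays being the uneven ones. Of the 433 genes that rose with MI-2-2, 311 were higher still and 57 lower in the combination; of the 270 that fell, 112 were lower still and 84 higher. Ltf was at 14.44, 14.40 and 14.38 with both compounds, 3.89±0.23 above MI-2-2 alone, and Meis1 at 6.82, 6.74 and 7.01, a further -2.49±0.09. Itgam, not called with MI-2-2, was 2.59±0.21 higher in the combination than with MI-2-2. Not every gene went on in the same direction: Irf8 was 1.64±0.51 higher than with MI-2-2 alone, Cdkn2c 2.17±0.15 higher and Psph, raised by MI-2-2, differed by -1.69±0.15. Tpm2 differed by -0.20±0.20, both groups being near or below percentile 40.

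MOLM-13, a human acute myeloid leukaemia line with the same type of fusion and DMSO arrays of its own, was read under the same dose and time. There 2629 of 14209 genes were called (18.5%; 10.2% higher and 8.35% lower), with a median standard error of 0.08 log2 against 0.16 in the mouse fit. Of 9863 symbols tested in both models, 296 rose in the mouse cells, and 84 of these (28.4%) rose in MOLM-13, where 11.1% of all symbols rose. The same 84 were 7.67% of the 1095 MOLM-13 risers, to be read beside the 296 mouse risers of 9863 symbols. Of 185 mouse fallers 35 (18.9%) fell in MOLM-13, where 8.62% of all symbols fell. They were 4.12% of the 850 MOLM-13 fallers, to be read beside the 185 mouse fallers of 9863 symbols. Opposite calls numbered 31 among mouse risers (10.5%) and 26 among mouse fallers (14.1%).

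The neutrophil list rose in MOLM-13 with smaller values, 11 of 17 with a median of 0.46. S100a8 was 1.04 and Mpo 0.83 higher there, while Ltf differed by 0.07 and was not called. The MOLM-13 probe sets of S100a8 and Ltf may bind other transcripts. KMT2A fusion targets had 9 fallers and 1 riser of 17. MEIS1 fell from 11.72, 11.66 and 11.71 to 10.19, 10.08 and 10.31, a change of -1.50±0.06 where the mouse gene changed by -0.58±0.09, and PBX3 and FLT3 changed by -0.61 and -0.51. Sterol genes went the other way in the human line: 7 of 15 fell, 0 rose and the median was -0.25. HMGCS1 changed there by -1.11 and SQLE by -0.74, against 0.54 and 1.01 in the mouse cells, a difference that was not tested. Interferon-stimulated genes, with 1 call of 21 in the mouse cells, had 16 fallers and 1 riser of 20 in MOLM-13 (median -1.04).

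**Figure D5:**
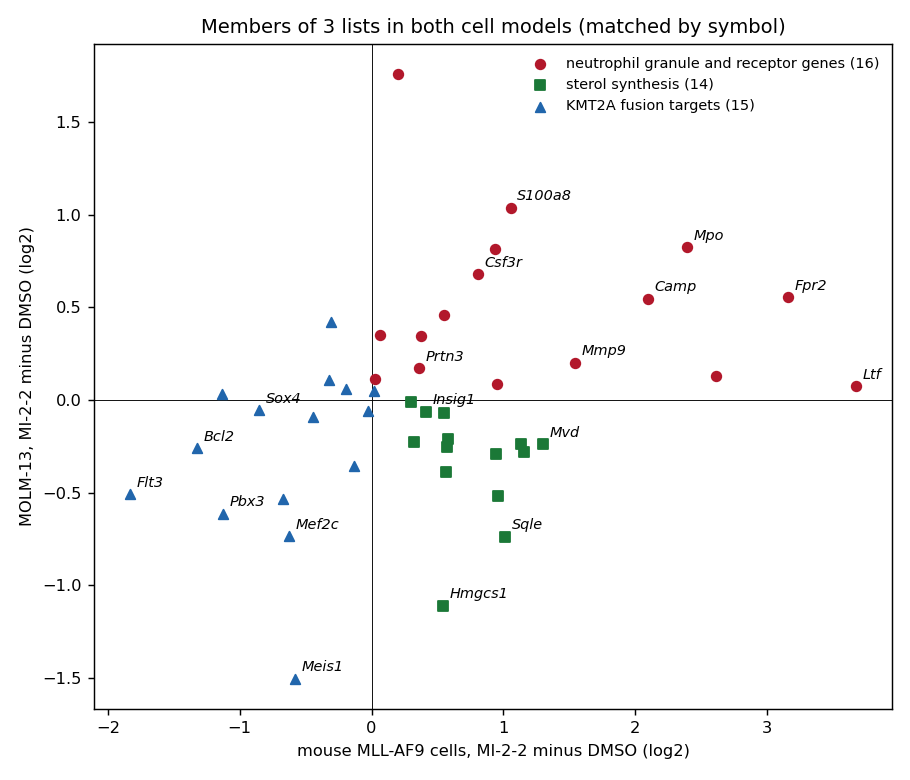
Change with MI-2-2 in the mouse cells (log2, horizontal axis) and in MOLM-13 (log2, vertical axis) for members of 3 lists whose symbols match, 16 neutrophil, 14 sterol synthesis and 15 KMT2A fusion target genes. Neutrophil genes lie above 0 on both axes, sterol genes lie above 0 in the mouse cells and below 0 in MOLM-13, and most fusion targets lie below 0 in the mouse cells.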

How the data were processed

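Total RNA was amplified (Nugen Ovation) and hybridised to Affymetrix arrays, per the labels' protocols. The authors deposited log2 values that RMA gave for each probe set (affy, R 3.0.2), per the submitters' processing notes, and these were used unchanged. Probe sets were named through the platform annotation: of 45101 mouse probe sets 34958 had 1 symbol, 932 several and 9211 none, and the latter 2 kinds and 64 controls were left out. Human symbols were updated by Entrez identifier. Each gene was represented by its brightest probe set on average, provided that 2 or more arrays had it above their percentile 40, which left 13365 mouse genes. The 12 mouse arrays were fitted with 1 coefficient per group in limma 3.58.1 under R 4.3.3 (lmFit, eBayes), with Benjamini-Hochberg adjustment over all genes and calls at an adjusted p under 0.05; MOLM-13 was fitted likewise on its 12 arrays. The script was tested on simulated data. A probe set ending in _s_at or _x_at may bind other transcripts, and 57 of the 703 calls rest on one. Precision is limited by 3 arrays per group, and array medians lay between 6.13 and 6.25.

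Named genes were the 15 largest rises and falls among called genes whose groups do not overlap, up to 4 called members of each of 26 gene lists and 8 marker lists (the largest change where none was called), Meis1, Hoxa9, Men1, Kmt2a, Dot1l, Kit, Flt3, Cebpa and Itgam, and the 3 largest rises and falls of the other contrasts, passing over symbols of clones; further list members are given by value. The comparison, lists and rule were chosen with earlier results of these data known. Alternatives were the filter, quantile normalization, mean of probe sets, an intensity trend, a fold minimum, the arrays in the fit, replicate number as a block, and each array left out; added after seeing the data were the closest pair of each group averaged, combination replicates 2 and 3 left out, a transferrin receptor 3' minus 5' covariate, and list medians without DMSO replicate 1.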

Additional observations from a re-analysis of the deposited data

Results flagged for a closer look

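For 7 of the genes named by the rule, among the 31 and 26 genes with opposite calls in the 2 models, every MI-2-2 array lay on one side of its DMSO arrays and every MI-2-2 array of MOLM-13 on the opposite side of its own; the difference between the models was not tested for any of them. Lipg, endothelial lipase, was 4.14 log2 higher in the mouse cells and -1.46 in MOLM-13. Ifitm3 differed by 2.06 and -0.75, and the integrin gene Itgal by 1.42 and -0.19. The sterol enzymes Sqle and Nsdhl were at 1.01 and -0.74, and at 0.95 and -0.29. Ier3, an early response gene, was at 0.81 in the mouse cells and -0.40 in MOLM-13. The MOLM-13 probe sets of Ifitm3, Itgal and Ier3 may bind other transcripts. Tns1 went the other way, with -2.60 in the mouse cells and 1.44 in MOLM-13.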

How the results depend on the processing

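For MI-2-2 against DMSO, 703 genes were called, and no filter, a stricter filter, quantile normalization, the mean of probe sets, an intensity trend and the covariate gave 643 to 698. A minimum of 1 log2 unit left 305. Fits of the 2 groups alone gave 1683, without the combination group 1856, and without combination replicates 2 and 3 1870. Averaging the closest pair of arrays in each group gave 137, and 558 when the combination group was left out as well; 8 neutrophil members were then called higher in the first case and 10 in the second. Leaving out 1 array gave 416 to 1695: 448 without DMSO replicate 2, 416 without DMSO replicate 3, 432 to 434 without an MI-2-2 array and 1695 without combination replicate 1.

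For MI-2-2 against EPZ004777 the 67 calls became 44 with the mean of probe sets, 29 at 1 log2 unit, 546 with the 2 groups alone, 550 without the combination group, 530 without combination replicates 2 and 3, 0 in limma with pairs averaged (455 genes at an unadjusted p under 0.05) and 20 with pairs averaged and the combination left out; leaving out 1 array gave 14 to 424. For the combination against MI-2-2 the 8372 calls became 4183 at 1 log2 unit and 5369 with pairs averaged, and 7401 to 10060 with 1 array left out. The 2629 MOLM-13 calls became 248 at 1 log2 unit and 1382 with the 2 groups alone, and 1833 to 2719 with 1 array left out. With the replicate number as a block the counts were 620, 46, 8283 and 2390; same-numbered DMSO and MI-2-2 arrays did not deviate together (correlations 0.10, 0.24 and -0.11), so the numbers were not treated as pairs. Of 82 named genes called, 37 kept their call under every alternative run and 45 lost it under at least 1; none reversed, and the causes were not tested. Without the combination group 1 menin and KMT2A complex gene and 1 DOT1L and super elongation complex gene rose. The 3 arrays per group and dim signal limit what small changes can show: 36 risers had all DMSO arrays, and 22 fallers all MI-2-2 arrays, below percentile 40.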

Other observations

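Genes outside the lists that were called in both cell models, picked here after their values were seen, included several of myeloid effector function. C5ar1, the receptor of complement C5a, was 2.15 higher in the mouse cells and 0.87 in MOLM-13, Trem1, an amplifier of inflammatory signalling, 2.05 and 1.02, and Orm1, an acute phase protein, 2.04 and 1.45. The Src family kinase gene Fgr was 1.78 and 1.10 higher, the prostaglandin E2 receptor Ptger2 1.62 and 1.28, and Lta4h, of leukotriene B4 synthesis, 0.55 and 0.50. Ankrd22 was 1.88 higher in the mouse cells and 4.15 in MOLM-13. Zeb1, a zinc finger repressor, was 1.79 and 1.54 higher.

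Other genes were called in opposite directions. Zfp36l1, which promotes mRNA decay, was 2.28 in the mouse cells and -0.91 in MOLM-13, G0s2, an inhibitor of lipolysis, 1.23 and -1.37, the sterol enzyme Hsd17b7 1.25 and -0.51, and Isg20, an interferon-induced exonuclease, 0.90 and -1.49. Rgs18, a regulator of G protein signalling, was -0.45 and 1.31. The difference between the models was not tested.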
